A study of Mus musculus with 6 samples.

Results

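The MHC class II presentation genes were followed as 9 named genes of the 16244 in the deposited RNA-seq table: the chain genes *H2-Ab1*, *H2-Aa* and *H2-Eb1*, the invariant chain gene *Cd74*, the peptide editing genes *H2-DMa*, *H2-DMb1*, *H2-Oa* and *H2-Ob*, and the transactivator gene *Ciita*. They were taken by gene symbol, and all 9 were found and passed the filter on low values. Between WT and RORγtN275D Th17 cells, *H2-Ab1* rose 2.06-fold and *Cd74* rose 1.2-fold, and no member fell. The other 7 members did not pass the test.

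The libraries were made from naive CD4+ T cells of mouse spleen, isolated by negative selection and activated for 3 days with anti-CD3 and anti-CD28 under pathogenic Th17 conditions with IL-6, IL-1β and IL-23. The study's methods also list TGF-β, anti-IL-4 and anti-IFN-γ among the culture reagents, and describe 1 set of conditions for both genotypes. The WT group had 3 libraries from C57BL/6 mice, and the N275D group had 3 libraries from young adult knockin mice on a C57BL/6 background. In the knockin mice, CRISPR-Cas9 had put the asparagine-to-aspartate change N275D into RORγt. The study lists the WT mice as C57BL/6NJ and gives no substrain for the knockin mice. Its methods give the same age range for all mice unless stated otherwise. The labels give the genotype of the knockin mice only as mutant, without zygosity, and the methods give another source for the WT mice, so the source of the mice and the genotype cannot be told apart. RORγt is the transcription factor that defines the Th17 lineage. Nothing in the labels says how many mice went into a library or that the replicates were separate cultures, so the p-values measure the spread between these libraries, which may be technical.

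The values are normalized reads, which were whole multiples of 1 factor per library. Divided by that factor, they summed to 17659035 to 18510878 reads per library, totals that are inferred from the values and not given with them. WT replicate 3 stood apart from the rest of its group. Its median squared difference from the other WT libraries was 3.01 and 3.07 times that of counting noise. For every other pair of replicates this value was 1.30 to 1.52. The cells carried Th17 transcripts at high level in both genotypes, with *Il17a* at 27495 ± 365 (SD, n = 3) normalized reads in WT and 32152 ± 458 (SD, n = 3) in N275D cells. A count of reads per gene does not show the changed base, so the genotypes rest on the labels. The test covered the 11908 genes that averaged 10 normalized reads or more over the 6 libraries. Of these, limma called 50.9% at a Benjamini-Hochberg adjusted p under 0.05, with 24.7% higher and 26.1% lower in N275D cells, and 3.59% with a change of at least 2-fold (2.73% higher and 0.857% lower).

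MHC class II molecules are pairs of an alpha and a beta chain that hold peptides from the endosomes and show them to CD4+ T cells. The pair is folded around the invariant chain, carried to the endosomes, and loaded there with peptide by H2-M, the DM protein, whose action is held back by H2-O, the DO protein. In mice of the b haplotype, such as C57BL/6, the working class II molecule is I-A, made of the products of *H2-Aa* and *H2-Ab1*. The partner of *H2-Eb1*, *H2-Ea*, is not expressed in that haplotype. Professional presenting cells, such as B cells and dendritic cells, make class II at high level, whereas mouse CD4+ T cells are known to make little of it. Ciita does not bind DNA itself. It docks on a complex of RFX, CREB and NF-Y proteins that sits on paired boxes, the X box and the Y box, in front of class II genes.

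These boxes were searched for in the members with a RefSeq promoter window on GRCm38.p6, the build that is also called mm10. Stretches are shown only for windows that held both of the matches described below. A window ran from 250 bases before to 50 bases after the annotated start, and 6 of the 9 members had at least 1. No window was used here for *H2-Ab1*, *Cd74* or *Ciita*. In each stretch of 65 bases, written 5′ to 3′ on the strand of the gene, the second run of capitals is the Y box, ATTGG, which NF-Y proteins bind, and the first is a match to GNAAC upstream of it, where the X box would lie.
H2-Aa, chr17:34287862-34287926, minus strand: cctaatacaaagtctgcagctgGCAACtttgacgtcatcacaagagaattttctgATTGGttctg
H2-Eb1, chr17:34305753-34305817, plus strand: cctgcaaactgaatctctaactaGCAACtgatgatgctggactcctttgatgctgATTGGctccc
H2-DMb1, chr17:34153075-34153139, plus strand: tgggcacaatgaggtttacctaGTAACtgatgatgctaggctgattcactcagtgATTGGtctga
H2-Oa, chr17:34092281-34092345, plus strand: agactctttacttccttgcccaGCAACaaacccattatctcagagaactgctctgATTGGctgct
H2-Ob, chr17:34238793-34238857, plus strand: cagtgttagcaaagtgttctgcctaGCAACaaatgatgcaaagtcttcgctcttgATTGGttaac

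The Y box began between 43 bases (*H2-Oa*) and 61 bases (*H2-DMb1*) before the annotated start. The GNAAC match lay 33 bases upstream of it in *H2-Aa*, *H2-DMb1* and *H2-Oa*, 32 bases in *H2-Eb1* and 30 bases in *H2-Ob*. A Y box on the gene strand, starting 80 to 31 bases before the start, was found in 5 of the 7 member windows and in 6.25% of 32851 promoter windows. GNAAC followed by ATTGG within 20 to 50 bases on the same strand was also found in 5 of 7, against 4.93% of all windows. Both of these searches were set after the member windows had been seen. Anywhere in the window and on either strand, ATTGG, whose reverse is CCAAT, matched in 6 of 7 member windows and in 37.4% of all windows, and the loose GNAAC in 7 of 7 and 84.8%. The half-site TGACG, which CREB proteins bind, matched in 1 of 7 against 20.8%, and lies in the *H2-Aa* stretch downstream of its GNAAC match. The X box core ACAGATG matched in 2 of 7 against 5.01%, and ACAGATG followed by ATTGG after 15 to 35 bases in 0 of 7 against 0.0852%. The 2 windows of *H2-DMa* held no Y box in the stretch from 80 to 31 bases before the start. A match of letters is a description and not a bound site.

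The classical chain genes were taken first. *H2-Ab1*, the I-A beta chain gene (gene 14961, GRCm38 chromosome 17, 34263227 to 34269418, 6 exons), was at 423, 415 and 421 normalized reads in the WT libraries and at 905, 858 and 834 in the N275D libraries. Every N275D library stood above every WT library, and the WT libraries lay close to each other. The means were 419.6 ± 4.43 (SD, n = 3) and 866 ± 36.6 (SD, n = 3), a log2 fold change of 1.04 (standard error 0.06, 95% confidence interval 0.92 to 1.16, limma with Benjamini-Hochberg adjusted p = 3.69e-10). It was 1.05 without WT replicate 3. Since 1 normalized read was added before the log2 was taken, fold changes are too small for genes at low level. *H2-Ab1* was the only member called at 2-fold, and 286 of the 325 genes called higher at 2-fold had a larger log2 fold change.

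*H2-Aa*, the I-A alpha chain gene (gene 14960, chromosome 17, 34282744 to 34287823), was far lower than its partner, at 37.3, 45.4 and 55 normalized reads in WT and 64.9, 61.2 and 51.4 in N275D libraries. The highest WT library, replicate 3, stood above the lowest N275D library, also replicate 3, so the genotypes overlapped. The log2 fold change was 0.37 (standard error 0.17, 95% confidence interval 0.01 to 0.73, limma adjusted p = 0.0801), which did not pass. Without WT replicate 3 it was 0.51 with a limma adjusted p of 0.0206, so this library decided the call. Leaving out any other library gave no call, and the lowest of these log2 fold changes was 0.23.

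*H2-Eb1*, the beta chain gene of I-E (gene 14969, chromosome 17, 34305867 to 34316674), was at 69.6, 77.7 and 67.8 normalized reads in WT and 81.9, 83.3 and 78.0 in N275D libraries. The N275D libraries all lay just above the WT libraries, but the log2 fold change of 0.18 (95% confidence interval -0.08 to 0.44) had a limma adjusted p of 0.244, and with quantile normalization it was 0.01. The antisense gene Gm20513 overlaps *H2-Eb1*, and the strand setting of the authors' counting is not given in the sources used here, so reads of the pair cannot be told apart. *H2-Eb2*, a second beta chain gene, was under the filter, with means of 4.01 and 3.65 normalized reads in WT and N275D libraries.

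*Cd74*, the invariant chain gene (gene 16149, chromosome 18, 60803849 to 60812652), encodes the chaperone that fills the groove of new class II pairs and steers them to endosomes. It was at 791, 762 and 758 normalized reads in WT and 981, 881 and 914 in N275D libraries. All N275D libraries were above all WT libraries. The means were 770.4 ± 18.2 (SD, n = 3) and 926 ± 51.2 (SD, n = 3), and the log2 fold change was 0.26 (standard error 0.05, 95% confidence interval 0.15 to 0.38, limma adjusted p = 0.000738). Without WT replicate 3 it was 0.25. This increase was smaller than that of *H2-Ab1*, and the confidence intervals of the changes did not meet.

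**Figure D1:**
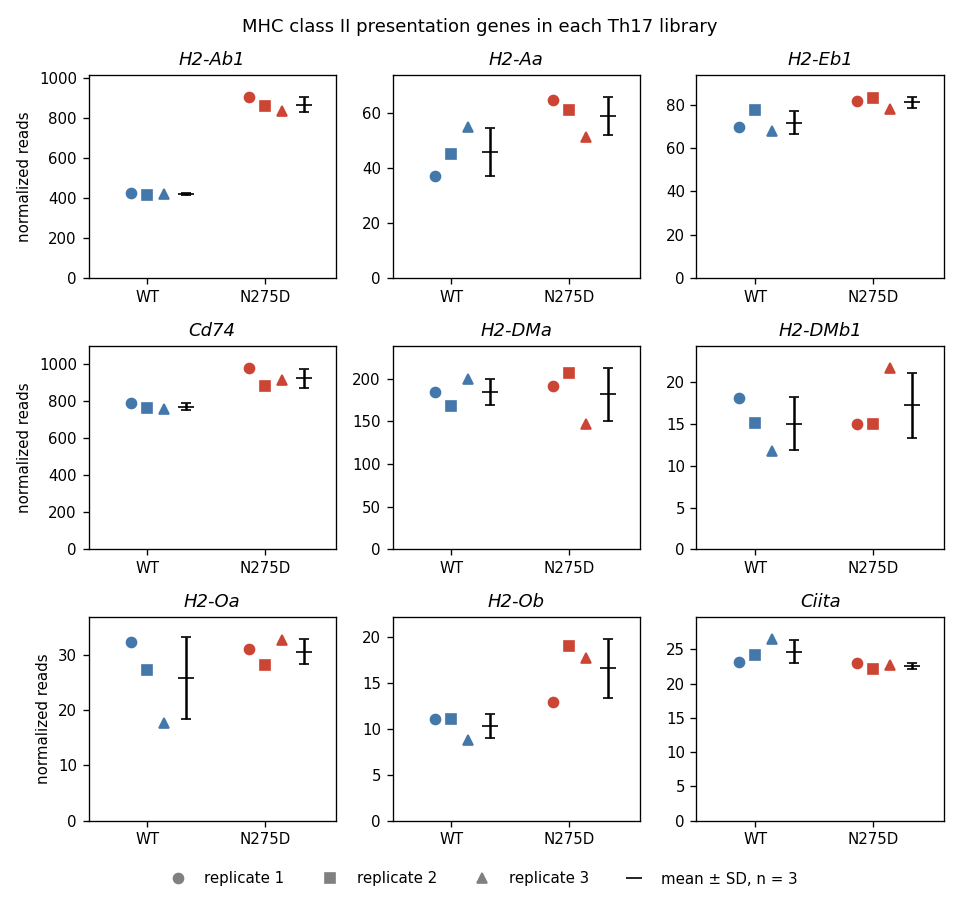
Normalized reads (vertical axis, linear and starting at 0) of each of the 9 members in the 3 WT (blue) and 3 N275D (red) libraries, with symbols for the replicate number and the mean ± SD (n = 3) beside each group. *H2-Ab1* went from about 423, 415 and 421 to 905, 858 and 834 normalized reads with a wide gap between the genotypes, *Cd74* with a narrow gap, and *H2-Aa*, *H2-DMa*, *H2-DMb1* and *H2-Oa* overlapped.

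The genes of the peptide editors did not pass the test in either direction. *H2-DMa*, the DM alpha chain gene (gene 14998, chromosome 17, 34119693 to 34139101), was at 185, 168 and 199 normalized reads in WT and 192, 207 and 147 in N275D libraries. N275D replicate 3 was the lowest and N275D replicate 2 the highest of all 6. The log2 fold change was -0.03 (95% confidence interval -0.27 to 0.21, limma adjusted p = 0.848), and its annotation overlaps that of *Brd2* on the other strand. *H2-DMb1*, a DM beta chain gene (gene 14999, chromosome 17, 34153191 to 34160229), was at 18.2, 15.1 and 11.8 normalized reads in WT and 15, 15 and 21.7 in N275D libraries. WT replicate 1 lay between the N275D values, so the genotypes overlapped, and the log2 fold change of 0.19 had an interval from -0.40 to 0.77 (limma adjusted p = 0.597). The log2 fold change was 0.02 without N275D replicate 3, 0.03 without WT replicate 3 and 0.33 without WT replicate 1, and it was -0.03 with quantile normalization. *H2-DMb2* is a near-identical copy of *H2-DMb1* and the counting may have split their reads, so both are uncertain. The copy was at 36.3, 37.3 and 37.3 normalized reads in WT and 38.9, 38.1 and 51.4 in N275D libraries, with a log2 fold change of 0.19 (limma adjusted p = 0.376).

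*H2-Oa* and *H2-Ob* encode the chains of DO, which holds DM back. *H2-Oa* (gene 15001, chromosome 17, 34092379 to 34095234) was at 32.3, 27.2 and 17.7 normalized reads in WT and 30.9, 28.1 and 32.6 in N275D libraries. WT replicate 3 was low, WT replicate 1 lay within the N275D range and WT replicate 2 just below it. The log2 fold change was 0.28 (95% confidence interval -0.21 to 0.76, limma adjusted p = 0.332), and it was 0.04 without WT replicate 3. An antisense gene, BC051537, overlaps *H2-Oa*. *H2-Ob* (gene 15002, chromosome 17, 34238905 to 34245908) had the lowest mean of normalized reads among the members in both genotypes, with no regard to length. It was at 11.1, 11.1 and 8.84 normalized reads in WT and 13.0, 19.1 and 17.8 in N275D libraries. Its N275D libraries all stood above its WT libraries. The log2 fold change of 0.62 was the second largest of the members, but with so few reads its interval ran from 0.01 to 1.24 and the limma adjusted p was 0.0838. Without the trended prior, limma called it, with an adjusted p of 0.0213.

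*Ciita*, the master switch of class II transcription (gene 12265, GRCm38 chromosome 16, 10480014 to 10531064), was the only member whose N275D libraries all lay below its WT libraries. It was at 23.2, 24.2 and 26.5 normalized reads in WT and 23.0, 22.1 and 22.7 in N275D libraries. The gap between the genotypes was smaller than 1 normalized read. The log2 fold change was -0.12 (standard error 0.21, 95% confidence interval -0.56 to 0.32, limma adjusted p = 0.656). At about 25 reads per library a change of the size seen for *Cd74* lies within the interval and was not detectable at this depth, but the interval does not reach the log2 fold change of *H2-Ab1*.

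Of the 9 members, 2 were called higher (22.2%), 0 lower and 7 neither, against 50.9% of all genes tested called in either direction. At an unadjusted p under 0.05 limma gave 4, namely *H2-Ab1*, *Cd74*, *H2-Aa* and *H2-Ob*, all with a positive log2 fold change. The share of members called was below the background, and only 3 of the 9, *Cd74*, *H2-Ab1* and *H2-DMa*, had a mean of at least 100 normalized reads. N275D libraries all lay above the WT libraries in 4 members and all below in 1, against 28.1% and 29.6% of all genes tested, or 57.7% either way. The median log2 fold change of the members was 0.26, and that of all genes tested was -0.0026. The members' median was 0.07 with quantile normalization, where 3 of 9 values were below 0, and 0.14 without WT replicate 3.

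**Figure D2:**
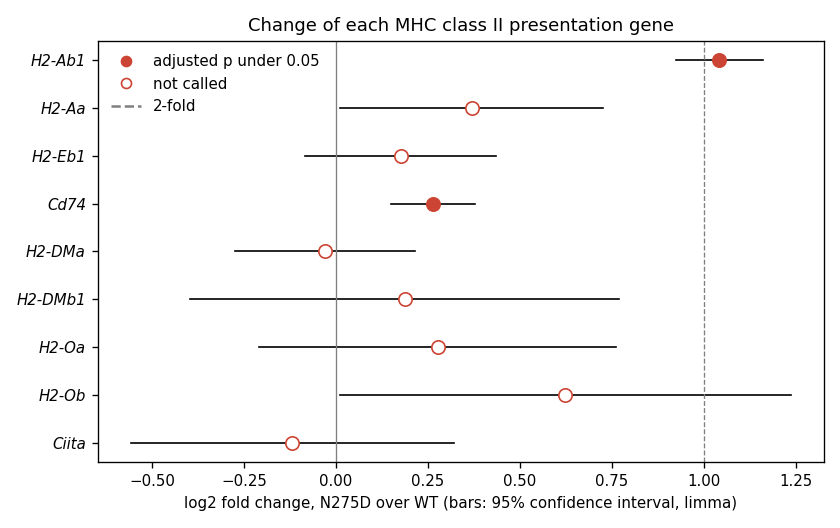
Log2 fold change of N275D over WT (horizontal axis, on log2 of normalized reads plus 1) for the 9 members, with the 95% confidence interval from limma as a bar and a dashed line at 2-fold. Filled points had an adjusted p under 0.05: *H2-Ab1* at 1.04 and *Cd74* at 0.26. The intervals of *H2-Aa* and *H2-Ob* began just above 0 without passing the adjusted threshold.

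Levels of different genes were compared per kilobase of annotated exon. In WT cells the order of mean levels was *Cd74* (546 ± 12.9 normalized reads per kb, SD, n = 3), *H2-Ab1* (346 ± 3.65), *H2-DMa* (111 ± 9.33), *H2-Eb1* (43.0 ± 3.15), *H2-Aa* (40.7 ± 7.84), *H2-Oa* (23.7 ± 6.82), *H2-DMb1* (10.7 ± 2.27), *Ciita* (4.10 ± 0.282) and *H2-Ob* (3.88 ± 0.488). The libraries of neighbours in this order overlapped for *H2-Eb1* and *H2-Aa* and for *Ciita* and *H2-Ob*, and were separate for the rest. In N275D cells *H2-Ab1*, at 714 ± 30.2 normalized reads per kb, reached the level of *Cd74*, at 656 ± 36.3, and their libraries overlapped. *H2-Aa* and *H2-Eb1* overlapped in N275D cells too, and *H2-Ob* and *Ciita* changed places. On the same scale *Cd4*, the co-receptor that binds class II, was at 2942 ± 107 normalized reads per kb in WT and 2442 ± 8.39 in N275D cells. Even *Cd74* and *H2-Ab1*, the members with the highest levels, lay well under *Cd4*.

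**Figure D3:**
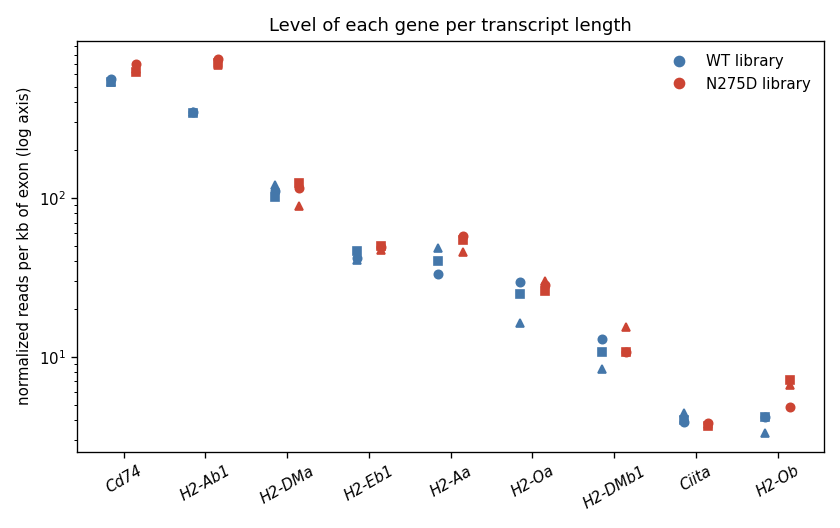
Normalized reads per kilobase of annotated exon (vertical log axis) for each member, ordered by the WT mean, with each of the 3 WT (blue) and 3 N275D (red) libraries as a point whose symbol marks the replicate number. The members spanned from 546 (*Cd74*) to 3.88 (*H2-Ob*) in WT, and *H2-Ab1* reached the level of *Cd74* in N275D cells.

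The sums and ratios of members were then set side by side. Summed over the 9 genes, the libraries held 1591, 1545 and 1567 normalized reads in WT and 2307, 2174 and 2119 in N275D cells, a ratio of the means of 1.40. Without *H2-Ab1* the remaining 8 genes held 1168, 1131 and 1145 in WT and 1402, 1316 and 1286 in N275D libraries, a ratio of 1.16. Most of these reads were from *Cd74*, and the 7 members other than *H2-Ab1* and *Cd74* held 376, 369 and 387 in WT and 420.3, 435 and 371 in N275D libraries, which overlapped, at a ratio of 1.08. *H2-Ab1* made up 26.6%, 26.8% and 26.9% of the members' reads in WT and 39.2%, 39.5% and 39.3% in N275D libraries, and all 9 genes together were 0.00865% of all normalized reads in WT and 0.0124% in N275D cells. In such bulk libraries fewer cells of a type and less RNA per cell cannot be told apart.

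The beta and alpha chains of I-A pair in equal numbers as proteins, but reads measure RNA and do not give the amounts of the chains. The *H2-Ab1* RNA level per kb was 10.5, 8.5 and 7.13 times that of *H2-Aa* in the WT libraries. In the N275D libraries it was 13.0, 13.0 and 15.1 times. These values rest on the few reads of *H2-Aa* and on annotated exon lengths. Every N275D library had the larger ratio, and an exact two-sided permutation test gave p = 0.1, the smallest that 3 against 3 can give. The ratio of *H2-Ab1* to *Cd74*, 0.622, 0.633 and 0.646 in WT and 1.07, 1.13 and 1.06 in N275D cells, and that of *H2-Ab1* to *H2-Eb1*, with means of 8.09 and 14.7, also separated the genotypes at the same exact p = 0.1. The ratio of *Cd74* to *H2-Aa* did not, with means of 13.8 ± 2.98 and 12.6 ± 1.44 (SD, n = 3, exact permutation p = 0.7). Within DM, *H2-DMa* over *H2-DMb1* was 10.8 and 9.40 in the means (exact permutation p = 0.6), and within DO, *H2-Oa* over *H2-Ob* was 6.02 and 4.66 (exact permutation p = 0.2). These 6 ratios were all that were computed, and with 3 libraries a group none can pass at 0.05, before or after adjustment. The ratios that separated the genotypes all had *H2-Ab1* over a member that changed less, so they restate its increase and are not separate evidence.

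The members other than *Cd74* and *Ciita*, 7 in number, lie together on chromosome 17 in a span of 373 kb from *H2-K1* to *Btnl2*. The table held 21 genes of this span, of which 19 were tested and 12 were not members. Among these 12, *H2-K1*, a class I heavy chain gene, rose (log2 fold change 0.22, limma adjusted p = 0.000121) and *Brd2*, a bromodomain chromatin reader gene, fell (log2 fold change -0.28, limma adjusted p = 1.54e-05). The remaining 10 did not pass, and the median over the 12 was -0.05. Of all genes tested, 50.9% were called in either direction. *Tap1* and *Tap2*, the peptide transporter genes of class I presentation, had log2 fold changes of -0.04 and -0.06, and *Psmb8* and *Psmb9*, the immunoproteasome subunit genes, 0.07 and -0.01. The members next to *H2-Ab1*, *H2-Ob* on the one side and *H2-Aa* on the other, had midpoints 20.8 and 22.1 kb from its start, and neither passed the test.

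**Figure D4:**
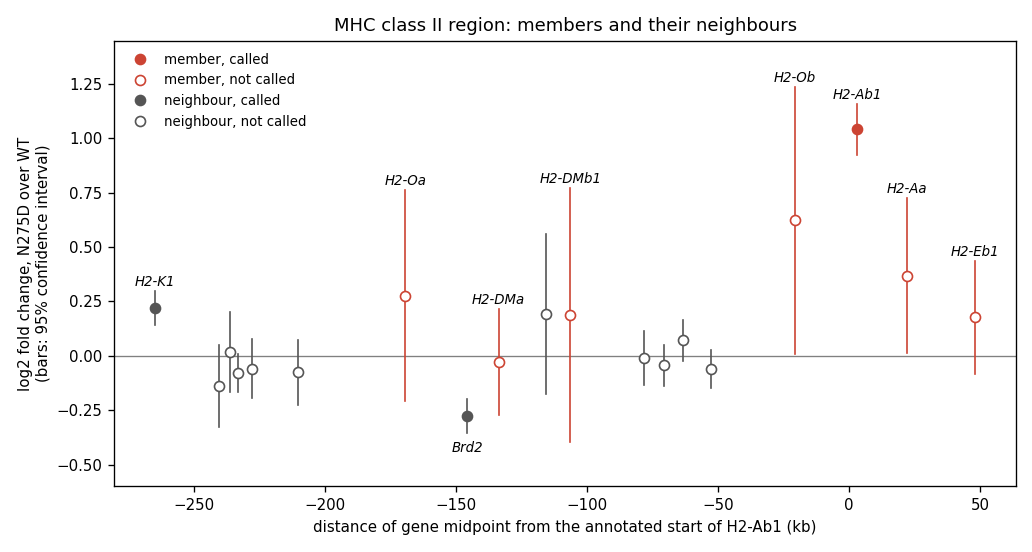
Log2 fold change of N275D over WT (vertical axis, bars are 95% confidence intervals from limma) for the 19 tested genes of the class II region, at the distance of each gene's midpoint from the annotated start of *H2-Ab1* in kb (horizontal axis). Members are red and other genes grey, and filled points had an adjusted p under 0.05. *H2-Ab1* stood at 1.04, while the 12 other genes of the region lay between -0.28 (*Brd2*) and 0.22 (*H2-K1*).

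The genes of the class II transcription machinery were given by a list of 10, all tested. In N275D cells 2 were higher and 3 lower, and the median log2 fold change was 0.01. The share called in this list was close to the 50.9% of all genes tested that were called in either direction. The RFX subunit genes *Rfx5*, *Rfxap* and *Rfxank*, whose products bind the X box, had log2 fold changes of 0.05, 0.07 and 0.12 and did not pass (limma adjusted p = 0.509, 0.463 and 0.223). *Creb1*, which joins them there, fell by 0.42 on the log2 scale (limma adjusted p = 1.73e-05). Of the genes of the Y box factor NF-Y, *Nfya* fell by 0.23 and *Nfyc* by 0.21 (limma adjusted p = 0.00113 and 0.00232), while *Nfyb* had a log2 fold change of -0.04 (limma adjusted p = 0.515). Among the histone acetyltransferases that Ciita recruits, *Kat2b* rose by 0.18 and *Crebbp* by 0.16 (limma adjusted p = 0.0386 and 0.0269). *Ep300*, another of them, had a log2 fold change of -0.03 and did not pass (limma adjusted p = 0.673).

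Upstream of *Ciita*, the list of its inputs held 15 genes, 14 of them tested, with 5 higher, 3 lower and a median of 0.08. The share called, 57.1%, was near the 50.9% of all genes tested. The interferon-γ receptor genes rose, *Ifngr1* by 0.46 and *Ifngr2* by 0.44 on the log2 scale (limma adjusted p = 0.000177 and 1.57e-05). *Ifngr1* was at 358, 286 and 323 normalized reads in WT and 456, 420.3 and 448 in N275D libraries, with every N275D library above. *Jak2*, a kinase gene of the same pathway, fell by 0.40 (limma adjusted p = 1.41e-05). *Irf1*, which acts on the interferon-responsive *Ciita* promoter, had a log2 fold change of -0.05 (limma adjusted p = 0.565), and *Irf2* fell by 0.20 (limma adjusted p = 0.0163). *Socs1*, an inhibitor of Janus kinases, rose by 0.38 and *Prdm1*, a repressor of *Ciita* in plasma cells, by 0.44 (limma adjusted p = 7.73e-05 and 0.0316). *Irf4* rose by 0.11 (limma adjusted p = 0.0145), and *Spi1*, the myeloid and B cell factor PU.1, was under the filter.

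The interferon-γ response list had 28 genes, 27 tested, with 7 higher, 4 lower and a median log2 fold change of 0.05. Of its tested genes 40.7% were called, below the 50.9% of all genes tested. The largest increases were in the chemokine gene *Cxcl10* (log2 fold change 0.96, limma adjusted p = 0.000118) and the interferon-induced GTPase genes *Gbp7* (0.65, limma adjusted p = 9.98e-05) and *Irgm1* (0.47, limma adjusted p = 2.5e-05), followed by *Socs1* and *Gbp4* (0.18, limma adjusted p = 0.0136). The genes that fell included the GTPase gene *Tgtp1* (-0.53), the class I chaperone gene *Tapbp* (-0.28) and *Nlrc5* (-0.18), the relative of *Ciita* that drives class I genes. Their limma adjusted p-values were 0.000465, 5e-05 and 0.00384. *Tgtp1* has a near-identical copy, *Tgtp2*, which had a log2 fold change of 0.07, and the reads of such a pair may be split.

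The list of class II processing and trafficking held 20 genes, all tested, with 5 higher, 7 lower and a median of -0.03. Calls made up 60.0% of this list and 50.9% of all genes tested. Genes of endosomal proteases that trim the invariant chain moved in opposite directions. *Ctsl*, which encodes cathepsin L, was at 203, 209 and 207 normalized reads in WT and 340.4, 304 and 308 in N275D libraries and rose by 0.62 on the log2 scale (limma adjusted p = 5.45e-06), whereas *Ctss*, which encodes cathepsin S, was at 444, 446 and 452 in WT and 412, 361 and 377 in N275D libraries and fell by 0.22 (limma adjusted p = 0.0101). *Ifi30*, the thiol reductase that opens disulfide bonds of antigens, fell by 0.54 (limma adjusted p = 4.92e-06), *Lamp1*, a lysosomal membrane protein gene, by 0.37 (limma adjusted p = 2e-06), and the protease genes *Lgmn* and *Ctsd* by 0.26 and 0.16 (limma adjusted p = 0.0184 and 0.00358).

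*Cd83* encodes a protein that holds class II at the surface by opposing its ubiquitin ligase. It rose by 0.44 (limma adjusted p = 3.57e-05), and the ligase genes *Marchf1* and *Marchf8* had log2 fold changes of 0.11 and 0.02 (limma adjusted p = 0.27 and 0.863). *Arl14ep* and *Myo1e*, of a complex that links class II vesicles to actin motors, rose by 0.63 and 0.36 (limma adjusted p = 1.43e-05 and 0.0367). *Ctsz*, another cathepsin gene, rose by 0.15 (limma adjusted p = 0.00283), and the adaptor gene *Ap1m1* fell by 0.19 (limma adjusted p = 0.0021).

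Genes whose products act beside class II in presentation, 8 in number and all tested, had a median of -0.26, with 1 higher and 4 lower. Called genes were 62.5% of these few, against 50.9% of all genes tested. *Lag3*, an inhibitory receptor on T cells that binds class II, was at 251, 248 and 327 normalized reads in WT and 403, 381 and 341 in N275D libraries, all of which were above. Its log2 fold change was 0.45 (limma adjusted p = 0.00122). *Cd4* fell by 0.27, the costimulatory ligand gene *Cd80* by 0.28, and the PD-1 ligand genes *Cd274* and *Pdcd1lg2* by 0.29 and 0.25 (limma adjusted p = 1.16e-05, 0.00286, 0.000241 and 0.00231). *Cd86*, *Cd40* and *Icosl*, at means under 100 normalized reads, had log2 fold changes of -0.03, -0.21 and -0.28 and did not pass.

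**Figure D5:**
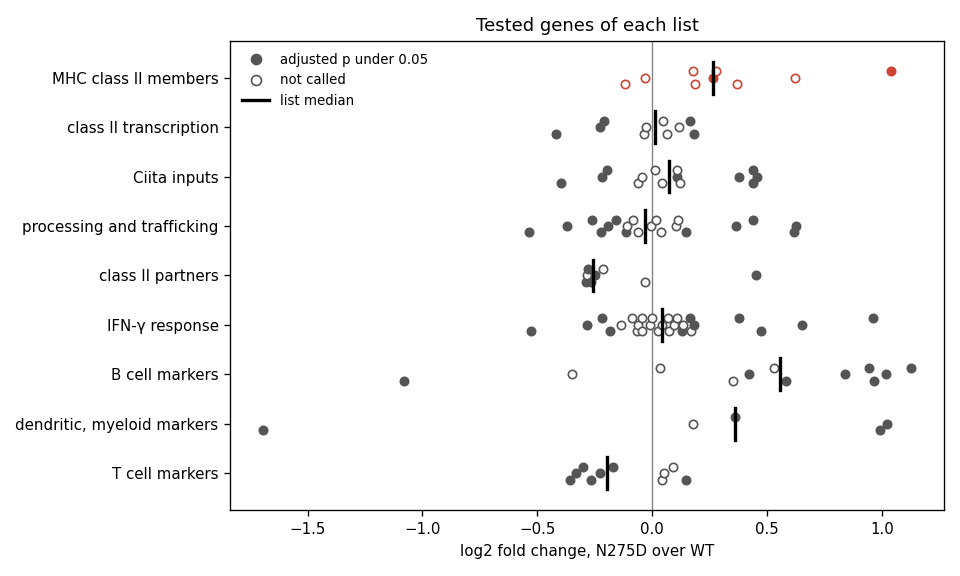
Log2 fold change of N275D over WT (horizontal axis) of each tested gene in 9 lists (rows; the members in red), with filled points for an adjusted p under 0.05 by limma, open points for genes not called and a black bar at the list median. The medians were 0.26 for the members (0.07 with quantile normalization), 0.01 for class II transcription, -0.03 for processing and trafficking, -0.26 for the class II partners, 0.56 for B cell markers and -0.20 for T cell markers.

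Markers of the cells that make class II in spleen moved with *H2-Ab1* and *Cd74* in part. Of 20 B cell markers, 15 were in the table and 12 were tested, with 7 higher, 1 lower and a median log2 fold change of 0.56. Of those tested 66.7% were called, against 50.9% of all genes tested. *Cd22*, an inhibitory receptor gene of B cells, was at 13.1, 9.08 and 12.8 normalized reads in WT and 27.0, 19.1 and 35.6 in N275D libraries, all of which were above. *Cd22*, *Blk*, *Blnk* and *Cd79a*, of B cell receptor signalling, rose by 1.13, 1.02, 0.97 and 0.94 on the log2 scale from WT means under 20 normalized reads (limma adjusted p = 0.00311, 0.00658, 0.00558 and 0.00475). The 4 tested markers that were not called were *Cd79b*, *Cr2*, *Bank1* and *Spib*. Their log2 fold changes were 0.53, 0.35, 0.04 and -0.35 (limma adjusted p = 0.0637, 0.387, 0.907 and 0.0992). *Ms4a1*, the CD20 gene, was at 0 in 2 of the 3 WT libraries and at 1.01 in the other, against 3.99, 4.01 and 9.88 normalized reads in the N275D libraries. *Vpreb3* was at 0 in 3 of the 6 libraries and at about 1 in the others. The immunoglobulin genes on the list were not found in the table by symbol, so they could not be read.

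The summed level of the 15 B cell markers was 2161 to 2333 normalized reads in WT and 2302 to 2419 in N275D libraries, which overlapped, but *Ebf1*, which rose, and *Pou2af1*, which fell by 1.08, made up most of it. Without these 2 genes, a choice made after their values were seen, it was 265, 284 and 290 in WT and 367, 430.4 and 433 in N275D libraries, a ratio of 1.47. Of 20 dendritic and myeloid markers, 15 were in the table and 5 were tested, with 3 higher (*Flt3*, *Cd14* and *Batf3*) and 1 lower (*Adgre1*), and the sum was 391 to 470 in WT and 545 to 600.0 in N275D libraries. *Batf3* alone was 71.8% of it in WT and 71.9% in N275D cells in the means, and without *Batf3*, also a choice made after the values were seen, the sum was 125, 114 and 136 in WT and 177, 154 and 148 in N275D libraries. The dendritic marker *Itgax* was at 3.03 to 9.03 normalized reads, and *Tyrobp* and *Clec10a* were at 0 in 5 of the 6 libraries each. T cell markers summed to 61369 to 65176 normalized reads in WT and 52981 to 55089 in N275D libraries, with 1 of 10 higher and 6 lower. The Th17 markers had 5 of 8 higher and 2 lower, the CD8 T and natural killer markers 3 of 4 tested higher, and the innate lymphoid (ILC3) markers 2 of 6 tested higher and 2 lower. In each of these lists, and in the dendritic and myeloid and T cell lists, the share called was above the 50.9% of all genes tested. These lists held only 4 to 10 tested genes each, and their shares were not tested against that of all genes. The part of any of these cells in the results for *H2-Ab1* and *Cd74* was not tested.

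By Pearson correlation over the 6 libraries, on the log2 scale, the genes whose pattern was most like that of the summed members were *Plpp2* (r = 0.998, log2 fold change 0.82), *Prrc1* (0.998, 0.45), *Klhl25* (0.998, 0.32), *Chmp1a* (0.998, 0.20) and *Paqr3* (0.997, 0.60). Among the 9578 genes compared, all with a mean of at least 100, 849 had an r above 0.95. The 6 points fall into 2 genotypes and come from the same libraries, and the likeness is given as a description, with no test.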

How the data were processed

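RNA-seq of 3 WT and 3 N275D libraries was grouped by the sample labels. According to the methods and labels, the authors' reads were trimmed, mapped by STAR onto the mm10 genome, assigned to genes by featureCounts and compared between genotypes by DESeq2. Versions and the strand setting are not given in the sources used here, and methods and labels name different stranded library kits. The deposited values are of the signal kind: the authors scaled the reads of each gene by a factor for the library, of which 100% of values were whole multiples within 1e-06. Unused columns hold the authors' group averages, log2 fold changes and q-values.

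Normalized reads plus 1 were put on the log2 scale and tested with limma (version 3.58.1, R 4.3.3, trended prior, no block) for the 11908 of 16244 genes with a mean of at least 10, with Benjamini-Hochberg adjustment over all of them. Single quantities were tested with an exact permutation test (scipy 1.17.1). The members and lists were chosen with earlier results of these data known. Named genes are the members, up to 5 higher and 5 lower of each list by size, markers at or near 0, and the 5 genes most like the summed members. Some listed genes that were not called are also named. A few genes that this rule names are not reported here. Exon lengths are from GENCODE, and coordinates and promoter windows from RefSeq for GRCm38.p6. Alternatives were other pseudocounts, filters and scalings, limma without a trend, a replicate block and each library left out.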

Additional observations from a re-analysis of the deposited data

How the results depend on the processing

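*H2-Ab1* and *Cd74* were called higher, and 0 members lower, under every alternative run. Leaving out each library in turn gave 2 to 3 members higher, 0 lower and 1 at 2-fold, with log2 fold changes of 1.01 to 1.07 for *H2-Ab1* and 0.22 to 0.30 for *Cd74*. The third call was *H2-Aa* without WT replicate 3 (log2 fold change 0.51, limma adjusted p = 0.0206) and, without the trended prior, *H2-Ob* (0.62, limma adjusted p = 0.0213). *H2-DMa*, which did not pass in any run, ranged from -0.13 to 0.11 as libraries were left out, so that its sign changed. Over all genes, the 427 calls at 2-fold became 259 with a pseudocount of 10, 703 with every gene of a mean above 0, and 162 with a mean of at least 100, which tested 3 members. The counts with each library left out were 2490 to 3100 higher, 2652 to 3298 lower and 413 to 456 at 2-fold. TMM scaling gave 3051 higher and 3012 lower, quantile normalization 2740 and 3066, and both called 2 members. Quantile normalization lowered all 7 members that did not pass: *H2-Aa* was 0.19, *H2-Eb1* 0.01, *H2-Oa* 0.07, *H2-Ob* 0.42, *H2-DMa* -0.12 and *Ciita* -0.34, and *H2-DMb1* turned from 0.19 to -0.03. The members' median was then 0.07, against 0.27 with TMM scaling. The cause was not tested.

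Same-numbered libraries did not deviate together (correlations of -0.05, 0.04 and -0.08), so the numbers were not read as pairs. With the replicate number as a block, 2 members were higher, 0 lower and 1 at 2-fold, and 2805 genes were higher, 2922 lower and 428 at 2-fold. The planned count models, edgeR and DESeq2 on whole reads, were not run, since the deposited values are scaled and the reads behind them were inferred, with factors too close to 1 in 4 of the 6 libraries for a separate check of them. Members under about 30 reads per library were limited by depth, with confidence intervals about as wide as a 2-fold change for *H2-DMb1*, *H2-Ob* and *H2-Oa*.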
